A study of Mus musculus with 88 samples.

Results

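Txnip, Pax6, Id2 and Angpt2 were followed through every treatment of a time course in the mouse cell line RAW 264.7, which grows as macrophage-like cells. These 4 of the 10518 genes measured were chosen by the size of their fall with lipopolysaccharide (LPS) alone, Txnip at 1 and 2 h and Pax6, Id2 and Angpt2 at 4 h. Values with LPS alone are therefore a description with no test. The 7 probes of the 4 genes, of 13260 probes used, were found in the platform's probe-to-gene table, with 1 probe for Pax6 and 2 for each of the others.

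Cells were exposed for 1, 2 or 4 h to LPS with isoproterenol (LPS+ISO), LPS with prostaglandin E2 (LPS+PGE2), LPS, isoproterenol (ISO) or prostaglandin E2 (PGE2). LPS is a bacterial outer-membrane lipid that activates Toll-like receptor 4, ISO is a beta-adrenergic agonist, and ISO and PGE2 can both raise cyclic AMP in macrophages. LPS was used at 100 ng/ml, PGE2 at 10 µM and ISO at 50 nM, and lipid binding protein (100 pM) is named in the labels of LPS given alone but not in those of the combinations. On each 2-colour array, RNA of treated cells was set against RNA of time-matched cells in medium. The 88 arrays formed 44 dye-swap pairs, here called sets, with 3 sets in each of 15 groups except PGE2 at 1 h, which had 2. Precision is limited by the number of arrays. Separate cultures are not recorded for the sets, so the p-values rest on a spread between sets that may be technical. Nor do the labels say whether groups of a set shared one medium RNA. Deviations of same-numbered sets from their group means correlated between LPS alone and LPS+ISO (r of 0.351 to 0.600) and LPS+PGE2 (0.197 to 0.590). The combinations are thus not fully independent of LPS alone. All groups used 1 established cell line.

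Values are log2 ratios, treated over medium, averaged over the dye-swap pair and over the probes of a gene. A value of −1 is a halved transcript level relative to medium, and a positive value is a higher level. The deposited ratios do not state their direction. Read as Cy5 over Cy3, 12 genes known to rise with LPS had a median above 0 on 18 of 18 arrays of LPS+ISO, on 18 of 18 of LPS+PGE2 and on 18 of 18 of LPS, so the direction used here is likely. Ratios hold no level, so the abundance of one gene cannot be set against that of another. In these bulk cultures, fewer cells with a transcript and less transcript per cell cannot be told apart. Tests were made with limma across all genes, and a gene passed at a Benjamini-Hochberg adjusted p under 0.05.

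The 4 genes have different known roles. Txnip encodes thioredoxin-interacting protein, an alpha-arrestin that binds reduced thioredoxin and restrains glucose uptake, and its transcription follows glucose supply. Pax6 encodes a paired-box and homeodomain transcription factor best known from development of the eye, the brain and the endocrine pancreas. Id2 encodes a helix-loop-helix protein without a DNA-binding region, which holds E proteins away from DNA and is a known target of bone morphogenetic protein (BMP) signalling. Angpt2 encodes angiopoietin 2, a ligand of the Tie2 receptor that can oppose angiopoietin 1 and is best known from endothelial cells.

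RefSeq promoter windows (GRCm38.p6, 250 bases before to 50 after a gene's start) matched 3 of the 4 genes, with 4 windows in all. Those of Txnip, Pax6 and Id2 are shown because one gene was lowered early and the others late. The 250 bases before each start are printed 5′ to 3′ on the gene's strand, at chr3:96557707-96557956 on the plus strand for Txnip, at chr2:105668646-105668895 on the plus strand for the upstream one of the 2 Pax6 windows, and at chr12:25096093-25096342 on the minus strand for Id2.
Txnip: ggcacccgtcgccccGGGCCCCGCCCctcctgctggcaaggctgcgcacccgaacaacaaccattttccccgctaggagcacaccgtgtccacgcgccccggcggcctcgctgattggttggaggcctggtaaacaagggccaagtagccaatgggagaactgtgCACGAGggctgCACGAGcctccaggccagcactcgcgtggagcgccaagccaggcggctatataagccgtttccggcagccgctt
Pax6: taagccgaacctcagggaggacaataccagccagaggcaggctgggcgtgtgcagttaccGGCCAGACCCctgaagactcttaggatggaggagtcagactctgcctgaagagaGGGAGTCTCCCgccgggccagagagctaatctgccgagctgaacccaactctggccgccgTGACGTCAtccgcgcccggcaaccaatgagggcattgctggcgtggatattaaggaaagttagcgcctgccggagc
Id2: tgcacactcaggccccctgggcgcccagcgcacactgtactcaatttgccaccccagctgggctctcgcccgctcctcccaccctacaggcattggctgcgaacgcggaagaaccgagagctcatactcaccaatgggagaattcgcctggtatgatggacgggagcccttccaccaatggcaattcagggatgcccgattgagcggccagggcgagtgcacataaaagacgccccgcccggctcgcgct
Capitals mark matches, on either strand, to any of 6 motifs: CACGTG (E-box), TGACGTCA (full cyclic AMP response element), TGACG (its core, which lies within the full one), an NF-kB type motif (3 G and a pair of C with 5 bases of any kind between them), TATAAA and CACGAG. The CACGAG motif was added after the sequences were seen. Txnip held 2 copies of CACGAG, starting 85 and 74 bases before the gene, in the spacing known as its carbohydrate response element. CACGAG lay in 6.47% of all 32851 windows. Pax6 held the full cyclic AMP response element 76 bases before its start, a motif in 1.79% of windows, and its other window held 2 copies of TGACG, a motif in 20.8%. The NF-kB type motif, found in 50.8% of windows, had matches in Txnip and in the printed Pax6 window. Id2 held none of the 6 motifs within its 300 bases, where CACGTG lay in 7.15% and TATAAA in 13.6% of all windows. A match is a description of these letters only.

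Txnip was lowered about 4-fold at 1 and 2 h in every treatment that held LPS and lay close to its level in medium at 4 h. At 1 h the sets stood at −2.82, −1.52 and −2.34 in LPS+ISO, at −2.57, −1.55 and −2.52 in LPS+PGE2 and at −2.74, −1.43 and −2.18 in LPS. Set 2 was the least lowered in each of these treatments, and their ranges overlapped throughout. Txnip fell 4.69-fold in LPS+ISO (mean −2.23 ± 0.66, SD, n = 3; limma adjusted p = 1.41e-09). In LPS+PGE2 it fell 4.63-fold (−2.21 ± 0.58, n = 3; adjusted p = 1.76e-09), and its mean in LPS was −2.12 ± 0.65, 4.34-fold lower than in medium. Txnip had the lowest ratio of all 10518 genes in LPS+ISO and in LPS+PGE2 at 1 h, as it had in LPS.

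At 2 h Txnip stood at −2.47, −1.98 and −1.69 in LPS+ISO, at −2.17, −2.03 and −1.63 in LPS+PGE2 and at −2.10, −2.08 and −1.86 in LPS. It fell 4.13-fold in LPS+ISO (−2.05 ± 0.39; adjusted p = 4.51e-09) and 3.85-fold in LPS+PGE2 (−1.94 ± 0.28; adjusted p = 1.30e-08), and again had the lowest ratio of all genes in both. The sets lay closest together in LPS, with a mean of −2.01 ± 0.13. At 4 h the sets stood at −0.79, −0.27 and 0.11 in LPS+ISO and at −0.63, −0.11 and 0.14 in LPS+PGE2, against −0.46, −0.38 and −0.13 in LPS. The 4 h ratios lay on both sides of 0 in each combination, and neither mean passed (−0.32, adjusted p = 0.302 in LPS+ISO and −0.20, adjusted p = 0.574 in LPS+PGE2). With set within time as a block the LPS+ISO value at 4 h passed (adjusted p = 0.0321). Ranked from the lowest, Txnip was then gene 1118 in LPS+ISO and gene 1913 in LPS+PGE2.

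Without LPS, Txnip moved less than it did with LPS at 1 and 2 h, and none of its means passed. At 1 h it stood at −0.45, −0.37 and −0.25 in ISO (mean −0.36; adjusted p = 0.619) and at −0.49 and −0.07 in PGE2 (mean −0.28; adjusted p = 0.746). Every set thus lay below 0 at 1 h, a state shared by 10.8% of all genes in ISO and 21.1% in PGE2. By its mean at 1 h Txnip was gene 66 of 10518 from the lowest in ISO and gene 421 in PGE2. At 2 h Txnip stood at 0.0018, 0.18 and 0.25 in ISO and at −0.07, 0.22 and 0.26 in PGE2. At 4 h it stood at −0.076, 0.25 and 0.38 in ISO and at 0.082, 0.28 and 0.41 in PGE2. These later ratios were mostly above 0 and none of them passed. The 2 Txnip probes (934 and 9833) lay within 0.20 of each other at 1 and 2 h in the treatments with LPS. At 4 h they averaged −0.45 and −0.18 in LPS+ISO, −0.34 and −0.060 in LPS+PGE2, −0.33 and −0.32 in LPS, 0.043 and 0.33 in ISO and 0.077 and 0.44 in PGE2. In PGE2 they were also apart at 1 h, at −0.12 and −0.44.

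Of 26 other genes listed for the alpha-arrestin family and the thioredoxin system, 19 were measured. At 4 h 6 passed higher and 4 lower in LPS+ISO, and the same numbers in LPS+PGE2, with list medians of 0.016 in LPS+ISO and 0 in LPS+PGE2 beside a median of 0 over all genes. Over all genes 14.4% passed higher and 15.6% lower in LPS+ISO at 4 h, and 15.2% higher and 16.5% lower in LPS+PGE2, the background for each list count at that time. At 1 h the numbers were 2 higher and 1 lower in both combinations, where 4.15% of all genes passed higher in LPS+ISO and 4.7% in LPS+PGE2. The gene lowered at every time was Arrdc2, another alpha-arrestin, with −0.96, −0.88 and −0.94 at 1, 2 and 4 h in LPS+ISO. Unlike Txnip, Arrdc2 was as low at 4 h as at 1 h. The genes that rose included Srxn1, which encodes sulfiredoxin and reactivates peroxiredoxins, at 0.88, 1.48 and 1.17 in LPS+ISO, and Txnrd1, thioredoxin reductase, at 0.39, 0.57 and 0.59. Glrx, glutaredoxin, rose at 2 h (0.72) and 4 h (1.56) in LPS+ISO. With ISO or PGE2 alone none of these 4 genes passed at any time.

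**Figure D1:**
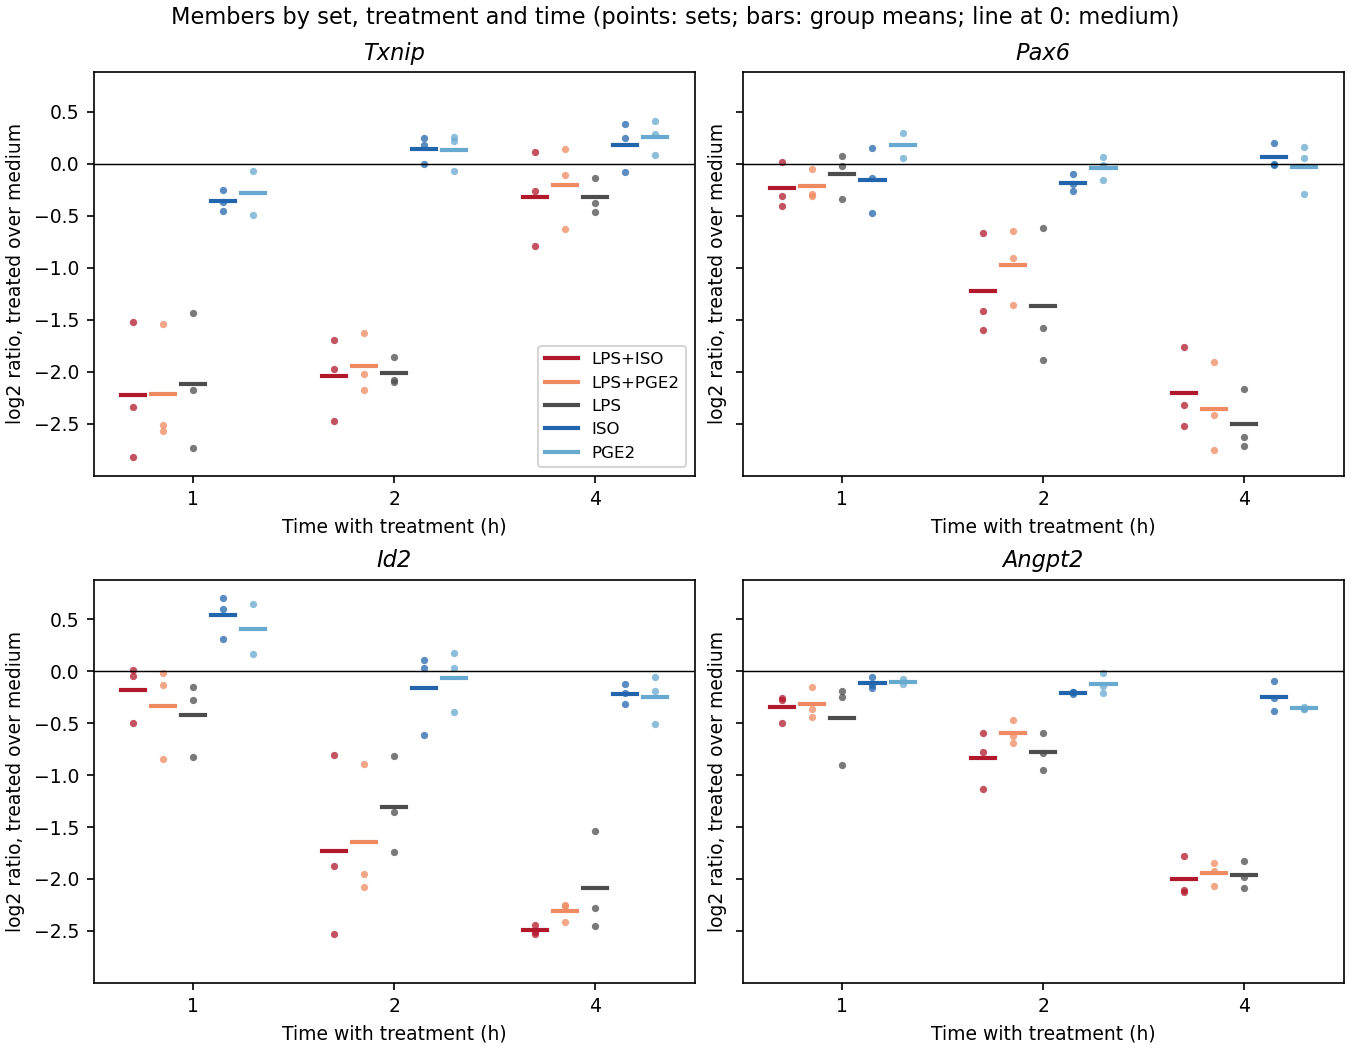
The log2 ratio of treated over medium (y axis) of each member at 1, 2 and 4 h (x axis), with 1 point per set, a bar at the group mean and colours for the 5 treatments. In the treatments with LPS, Txnip is low at 1 and 2 h and near 0 at 4 h, while Pax6, Id2 and Angpt2 go lower with time to group means between −2.50 and −1.94 at 4 h.

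Pax6 was close to its level in medium at 1 h and fell more than 4-fold by 4 h in the combinations with LPS. At 1 h the sets stood at −0.31, 0.013 and −0.41 in LPS+ISO and at −0.31, −0.048 and −0.29 in LPS+PGE2, against −0.023, 0.078 and −0.33 in LPS. Neither combination passed (adjusted p = 0.545 in LPS+ISO and 0.605 in LPS+PGE2). At 2 h the sets stood at −1.60, −0.67 and −1.42 in LPS+ISO, at −0.64, −0.91 and −1.36 in LPS+PGE2 and at −1.89, −0.62 and −1.58 in LPS. All 9 of these sets lay below 0, as did all sets for 17.7% of all genes in LPS+ISO, 16.4% in LPS+PGE2 and 21.8% in LPS, and the treatments overlapped.

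The 2 h falls of Pax6 passed in LPS+ISO (2.34-fold, mean −1.23 ± 0.50; adjusted p = 5.28e-06) and in LPS+PGE2 (1.96-fold, −0.97 ± 0.36; adjusted p = 1.75e-04). In set 1 of each, 1 of the 2 arrays was listed at exactly 0, a value of unknown meaning, and the other array stood at −3.21 in LPS+ISO and −1.29 in LPS+PGE2. Without set 3 the LPS+PGE2 fall at 2 h was −0.78 and no longer passed (adjusted p = 0.121). Over the alternative ways of processing, the LPS+ISO mean at 2 h ran from −1.76 to −1.04. The difference LPS+ISO minus LPS at 2 h ran from −0.40 to 0.23, so its sign depended on the processing.

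At 4 h Pax6 stood at −2.52, −1.76 and −2.32 in LPS+ISO, at −2.75, −1.91 and −2.42 in LPS+PGE2 and at −2.63, −2.16 and −2.71 in LPS. Set 2 was again the least lowered in each. The fall was 4.60-fold in LPS+ISO (−2.20 ± 0.39; adjusted p = 9.33e-12) and 5.13-fold in LPS+PGE2 (−2.36 ± 0.42; adjusted p = 1.81e-12), beside a mean of −2.50 ± 0.30 in LPS. Pax6 had the lowest ratio of all genes in LPS+PGE2 at 4 h and the third lowest in LPS+ISO.

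ISO and PGE2 alone left Pax6 without a fall that passed, from the ranges of its sets at each time. In ISO the sets ran from −0.48 to 0.15 at 1 h, from −0.26 to −0.10 at 2 h and from −0.010 to 0.20 at 4 h. In PGE2 they ran from 0.058 to 0.30 at 1 h, from −0.16 to 0.062 at 2 h and from −0.29 to 0.16 at 4 h. Of these 6 group means the lowest was −0.18 in ISO at 2 h (adjusted p = 0.837) and the highest 0.18 in PGE2 at 1 h (adjusted p = 0.842).

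Of 28 other paired-box and eye developmental factors listed, 22 were measured. At 4 h 1 passed higher and 3 lower in LPS+ISO (14.4% and 15.6% of all genes) and likewise 1 and 3 in LPS+PGE2 (15.2% and 16.5%), with list medians of 0 in both, as over all genes. Six5, a homeobox factor, fell at 4 h to −0.55 in LPS+ISO and −0.58 in LPS+PGE2, and Meis2, a homeobox cofactor, to −0.44 in LPS+ISO and −0.47 in LPS+PGE2. Mitf, a transcription factor of pigment cells, osteoclasts and macrophages, rose at 4 h to 0.58 in LPS+ISO and 0.69 in LPS+PGE2 and fell at 2 h in ISO (−0.69). Eya4, a transcriptional coactivator and phosphatase, fell at 2 h in LPS+ISO (−0.29) and at 1 h in LPS+PGE2 (−0.39). The largest absolute ratio of the 22 at 4 h was 0.58 in LPS+ISO and 0.69 in LPS+PGE2. Pax6 was chosen for its fall with LPS at 4 h, so its larger fall follows in part from that choice. Some of the 22 were also seldom other than 0, such as Six3 on 21 arrays.

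Id2 followed the same late course with LPS and stood above 0 at 1 h with ISO or PGE2 alone. At 1 h its sets stood at −0.051, 0.0060 and −0.50 in LPS+ISO and at −0.14, −0.016 and −0.84 in LPS+PGE2, against −0.15, −0.28 and −0.83 in LPS. Set 3 was the lowest in each treatment, and neither combination passed (adjusted p = 0.752 in LPS+ISO and 0.485 in LPS+PGE2). At 2 h they stood at −2.53, −0.81 and −1.87 in LPS+ISO, at −2.08, −0.89 and −1.95 in LPS+PGE2 and at −1.36, −0.82 and −1.75 in LPS. Set 2 was the least lowered in all 3 treatments, between −0.89 and −0.81.

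The 2 h falls of Id2 passed in LPS+ISO (3.33-fold, mean −1.73 ± 0.87; adjusted p = 6.71e-07) and in LPS+PGE2 (3.12-fold, −1.64 ± 0.65; adjusted p = 1.92e-06). At 4 h the sets stood at −2.51, −2.45 and −2.53 in LPS+ISO, at −2.25, −2.26 and −2.41 in LPS+PGE2 and at −1.54, −2.45 and −2.28 in LPS. The combinations were closely reproduced between sets, while set 1 of LPS was less lowered. Id2 fell 5.64-fold in LPS+ISO (−2.49 ± 0.044; adjusted p = 9.30e-11) and 4.95-fold in LPS+PGE2 (−2.31 ± 0.093; adjusted p = 5.13e-10), beside a mean of −2.09 ± 0.48 in LPS. It had the lowest ratio of all genes in LPS+ISO at 4 h and the second lowest in LPS+PGE2, and its 2 probes agreed in every treatment with LPS.

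At 1 h Id2 stood at 0.60, 0.71 and 0.31 in ISO and at 0.64 and 0.17 in PGE2. All 6 ISO arrays (0.30 to 0.74) and all 4 PGE2 arrays (0.13 to 0.79) lay above 0, as they did for 3.96% of all genes in ISO and 8.38% in PGE2. The ISO mean of 0.54 ± 0.20, 1.45-fold above medium, did not pass (adjusted p = 0.385), nor did the PGE2 mean of 0.41 (adjusted p = 0.650). With set within time as a block the ISO value passed (adjusted p = 0.0325), and with the arrays fitted singly it did so as well (adjusted p = 0.0313). By 4 h every set lay below 0, at −0.31, −0.13 and −0.21 in ISO and at −0.51, −0.053 and −0.19 in PGE2, without passing (adjusted p = 0.730 in ISO and 0.857 in PGE2). Sets below 0 throughout were found for 15.8% of all genes in ISO and 20.5% in PGE2 at that time.

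All 19 other genes listed for Id proteins, E proteins and BMP signalling were measured. At 4 h 4 passed higher and 5 lower in LPS+ISO (14.4% and 15.6% of all genes) and 4 higher and 7 lower in LPS+PGE2 (15.2% and 16.5%), with list medians of −0.021 in LPS+ISO and 0 in LPS+PGE2. Id1 and Id3, other Id genes of the list, differed from Id2 in at least part of their course. Id3 rose at 1 h (1.14 in LPS+ISO and 1.09 in LPS+PGE2) and fell at 4 h (−1.14 in LPS+ISO and −0.97 in LPS+PGE2). Id1 was near 0 at 1 h in the combinations (−0.13 in LPS+ISO and −0.15 in LPS+PGE2) and rose at 4 h to 1.07 in LPS+ISO and 1.37 in LPS+PGE2.

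Id1 also rose at 1 h in ISO (0.93) and in PGE2 (0.82), the treatments in which Id2 stood at 0.54 in ISO and 0.41 in PGE2 without passing. Smad7, an inhibitory Smad, rose at 1 h in ISO (0.80) and in PGE2 (0.62). At 1 h without LPS these were the 2 genes of the list that passed in ISO, where 0.903% of all genes passed in either direction. The same 2 passed in PGE2, where 0.323% of all genes did. Smad6, the other inhibitory Smad, fell with LPS alongside Id2, to −0.39 at 2 h and −0.70 at 4 h in LPS+ISO and to −0.41 and −0.68 in LPS+PGE2.

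**Figure D2:**
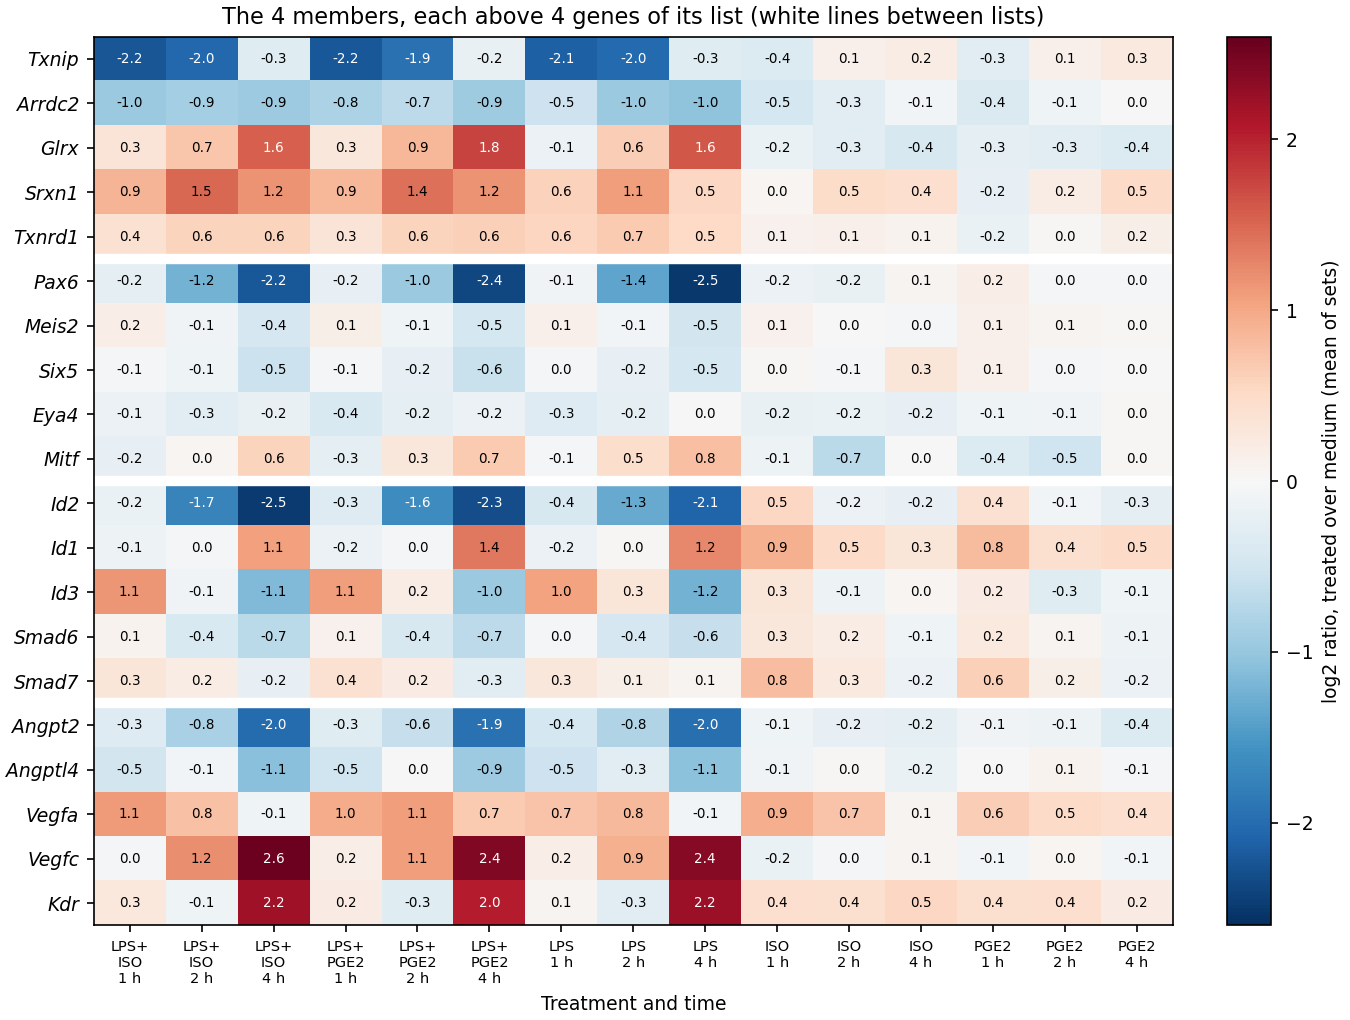
Mean log2 ratio of treated over medium over the sets (colour and printed value), for each member and the 4 genes of its list with the largest ratios that passed in any comparison (rows), in the 15 groups of treatment and time (columns). At 4 h Id2 is at −2.5 in LPS+ISO and −2.3 in LPS+PGE2, while Id1 is at 1.1 in LPS+ISO and 1.4 in LPS+PGE2.

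Angpt2 was the only member with a fall that passed at all 3 times in both combinations, from a small one at 1 h to about 4-fold at 4 h. At 1 h the sets stood at −0.50, −0.27 and −0.26 in LPS+ISO and at −0.45, −0.15 and −0.37 in LPS+PGE2, against −0.90, −0.25 and −0.19 in LPS. The 1 h falls were 1.27-fold in LPS+ISO (mean −0.34 ± 0.13; adjusted p = 0.0206) and 1.25-fold in LPS+PGE2 (−0.32 ± 0.15; adjusted p = 0.0321). Both were weak calls: without set 3 the adjusted p was 0.211 in LPS+ISO and 0.425 in LPS+PGE2, and without set 2 it was 0.0929 in LPS+ISO and 0.0693 in LPS+PGE2.

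At 2 h Angpt2 stood at −1.13, −0.59 and −0.78 in LPS+ISO, at −0.62, −0.47 and −0.69 in LPS+PGE2 and at −0.96, −0.59 and −0.79 in LPS. It fell 1.78-fold in LPS+ISO (−0.84 ± 0.27; adjusted p = 5.15e-08) and 1.51-fold in LPS+PGE2 (−0.60 ± 0.11; adjusted p = 2.10e-05). At 4 h it stood at −2.10, −1.78 and −2.13 in LPS+ISO, at −1.84, −1.93 and −2.06 in LPS+PGE2 and at −1.83, −1.98 and −2.09 in LPS. The sets of each treatment lay within 0.35 of each other and the treatments overlapped. The 4 h falls were 4.01-fold in LPS+ISO (−2.01 ± 0.19; adjusted p = 2.17e-17) and 3.85-fold in LPS+PGE2 (−1.94 ± 0.11; adjusted p = 5.14e-17), and the mean in LPS was 3.90-fold lower than in medium with an SD of 0.13.

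The size of the Angpt2 fall depended on the probe. At 4 h probe 16838 averaged −2.52 in LPS+ISO, −2.52 in LPS+PGE2 and −2.51 in LPS, while probe 121 averaged −1.49 in LPS+ISO, −1.37 in LPS+PGE2 and −1.42 in LPS. Both probes were lowered in every treatment with LPS, and the means given for the gene lie between them. Probe 121 was listed at 0 on both arrays of set 1 of LPS+PGE2 at 2 h, so that set rests on 1 probe with the other at 0.

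Without LPS Angpt2 stood slightly below 0 in every set, as did 10.8, 16 and 15.8% of all genes in ISO and 21.1, 13.6 and 20.5% in PGE2 at 1, 2 and 4 h. At 4 h it stood at −0.09, −0.26 and −0.38 in ISO (mean −0.25 ± 0.14; adjusted p = 0.174) and at −0.36, −0.35 and −0.36 in PGE2 (mean −0.36 ± 0.0081; adjusted p = 0.0660). With set number as a block the PGE2 value passed (adjusted p = 0.0304), as it did with set within time as a block (adjusted p = 0.00806). Without set 1 it passed too (−0.35, adjusted p = 0.0214), as did the ISO value (−0.32, adjusted p = 0.0195), while without set 3 the adjusted p was 0.993 in PGE2 and 0.860 in ISO. At 1 and 2 h the means were −0.12 and −0.21 in ISO and −0.10 and −0.12 in PGE2, and none of these passed.

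**Figure D3:**
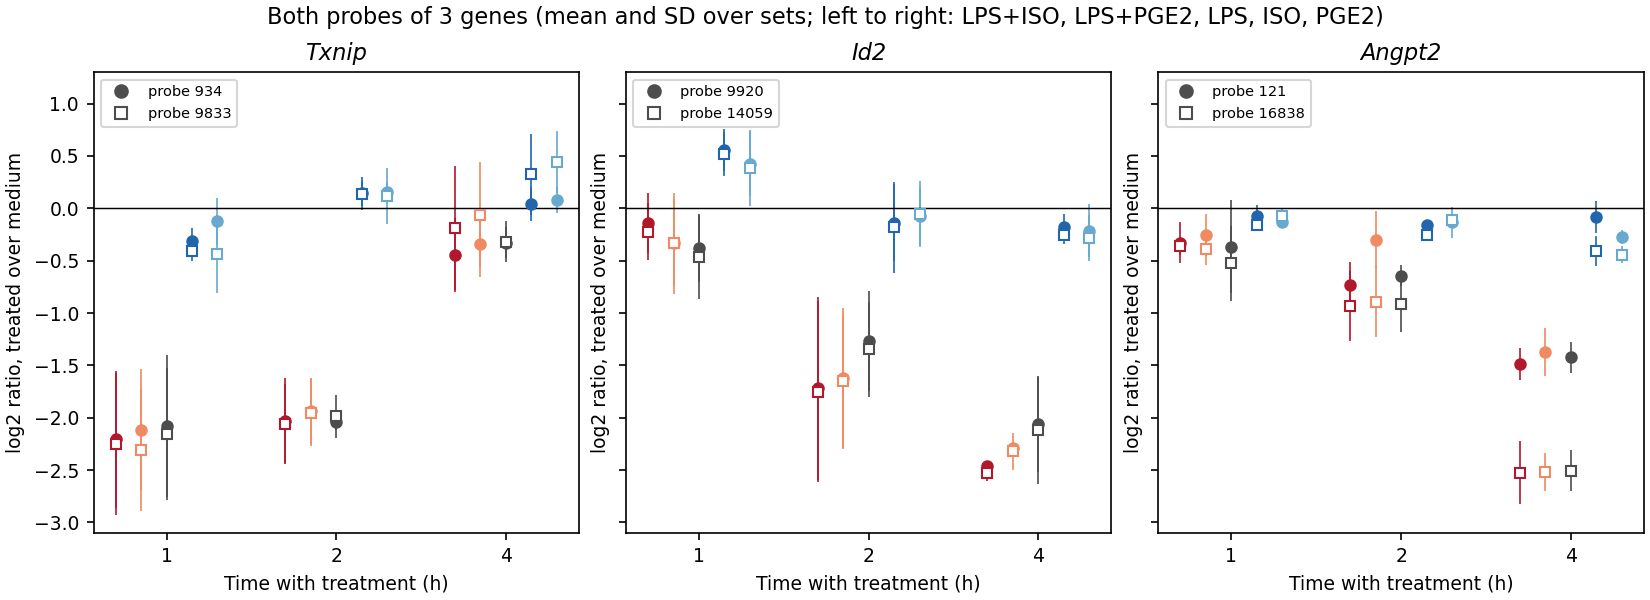
Mean log2 ratio of treated over medium with SD over the sets (y axis) at 1, 2 and 4 h (x axis) for each of the 2 probes of Txnip, Id2 and Angpt2, with filled circles for one probe and open squares for the other. The 2 Angpt2 probes are about 1 log2 unit apart at 4 h with LPS, whereas the Id2 probes lie on each other.

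Of 22 other genes listed for angiopoietins, Tie receptors and the vascular endothelial growth factor (VEGF) family, 17 were measured. At 4 h 2 passed higher and 3 lower in LPS+ISO (14.4% and 15.6% of all genes) and 3 higher and 2 lower in LPS+PGE2 (15.2% and 16.5%), numbers near the background, with list medians of −0.029 in LPS+ISO and 0.010 in LPS+PGE2. Vegfc, a growth factor for lymphatic endothelium, rose to 2.55 in LPS+ISO and 2.42 in LPS+PGE2 at 4 h, and Kdr, a VEGF receptor, to 2.21 in LPS+ISO and 2.04 in LPS+PGE2. Angptl4, an inhibitor of lipoprotein lipase, fell at 4 h to −1.09 in LPS+ISO and −0.95 in LPS+PGE2. Angpt1, the other angiopoietin ligand of Tie2, was chosen for mention after its values were seen and fell with Angpt2 at 2 h (−0.50 in LPS+ISO and −0.31 in LPS+PGE2) and at 4 h (−0.80 in LPS+ISO and −0.84 in LPS+PGE2). Tek, which encodes Tie2, lay between −0.023 and 0.0011 in the combinations at all times and did not pass.

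Vegfa rose early, at 1 h to 1.10 in LPS+ISO, 0.96 in LPS+PGE2 and 0.94 in ISO, where no member passed higher. At 4 h its mean was −0.12 in LPS+ISO, which did not pass, and 0.69 in LPS+PGE2, which did. The difference between these 2 treatments passed for none of the 10518 genes (0%) at 4 h.

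Counted over the members, 2 of 4 passed lower at 1 h in LPS+ISO (3.27% of all genes passed lower) and 2 of 4 in LPS+PGE2 (2.99%), namely Txnip and Angpt2. At 2 h 4 of 4 passed lower in LPS+ISO (6.15%) and 4 of 4 in LPS+PGE2 (5.77%). At 4 h it was 3 of 4 in LPS+ISO (15.6%) and 3 of 4 in LPS+PGE2 (16.5%), all but Txnip. The members were chosen as large falls with LPS alone and both combinations held LPS, so these counts follow in part from that choice. With ISO no member passed at 1 h (0.903% of all genes passed in either direction), 2 h (1.71%) or 4 h (3.36%). With PGE2 none passed at 1 h (0.323%), 2 h (0.456%) or 4 h (1.14%). These shares are low for all genes too, so the absence of calls with ISO or PGE2 is near the background.

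Whether ISO or PGE2 altered the response to LPS was asked by setting the treatments with LPS against each other. The difference between LPS+ISO and LPS+PGE2 passed for no member at 1, 2 or 4 h, with an adjusted p of 1 for each gene and time, also with set number or set within time as a block. At the same threshold 0 of 10518 genes (0%) passed at 1 h, 0 (0%) at 2 h and 0 (0%) at 4 h, while 128, 168 and 154 genes had an unadjusted p under 0.05. Intervals here and below are from the fit without a block, which leaves the pairing of same-numbered sets unused. The widest interval among the members was that of Id2, whose difference at 4 h, LPS+ISO minus LPS+PGE2, was −0.19 (95% interval −0.84 to 0.47). The narrowest was that of Angpt2, at −0.061 (−0.34 to 0.22) at 4 h and −0.24 (−0.52 to 0.036) at 2 h. In same-numbered sets LPS+ISO was the lower one in 3 of 3 pairs for Txnip and Id2 at 4 h and Angpt2 at 2 h, and in 0 of 3 for Id2 at 1 h and Pax6 at 4 h. For Txnip at 1 h the difference was −0.017 (−0.61 to 0.58) and for Pax6 at 4 h 0.16 (−0.37 to 0.68).

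Set against LPS alone at times that had not chosen the gene, no member of either combination passed. Lipid binding protein is named only in the labels of LPS alone. Its part and that of ISO or PGE2 cannot be told apart in these differences. In LPS+ISO minus LPS 2 genes of all (0.019%) passed at 1 h, 0 (0%) at 2 h and 10 (0.0951%) at 4 h. In LPS+PGE2 minus LPS the shares were 0%, 0% and 0.0285%. Txnip at 4 h differed by 0.0081 (95% interval −0.59 to 0.60) in LPS+ISO minus LPS and by 0.12 (−0.47 to 0.72) in LPS+PGE2 minus LPS. The largest of the tested differences was that of Id2 at 2 h, at −0.43 (−1.09 to 0.23) in LPS+ISO minus LPS. At the times that chose the genes the differences are given with no test, and they were −0.11 for Txnip at 1 h, 0.30 for Pax6, −0.40 for Id2 and −0.041 for Angpt2 at 4 h in LPS+ISO minus LPS. The corresponding values of LPS+PGE2 minus LPS were −0.095 for Txnip, 0.14 for Pax6, −0.22 for Id2 and 0.020 for Angpt2.

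**Figure D4:**
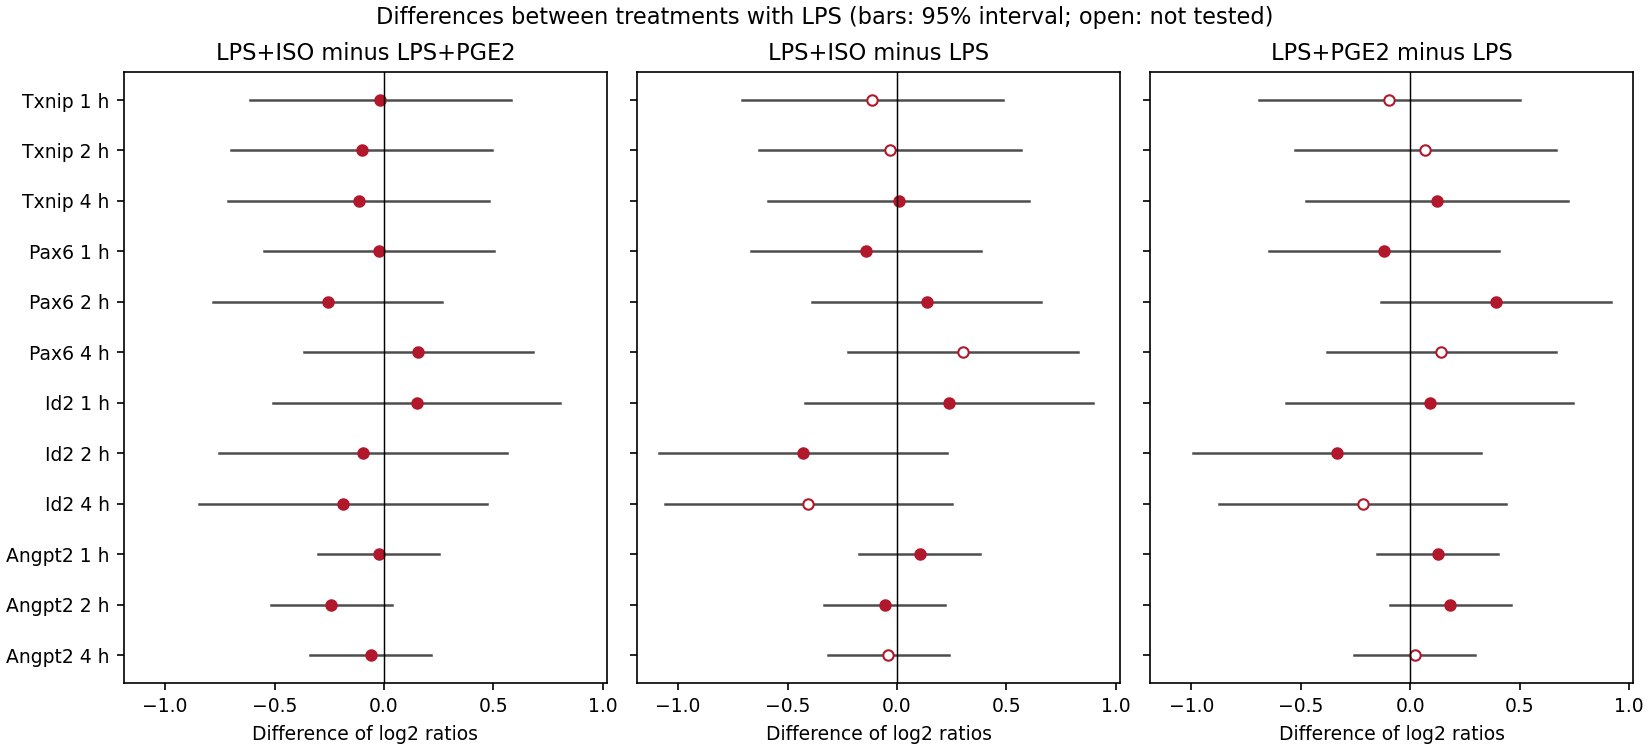
Difference of log2 ratios (x axis) for each member and time (y axis) in LPS+ISO minus LPS+PGE2, LPS+ISO minus LPS and LPS+PGE2 minus LPS, with 95% intervals from limma as bars and open points where the LPS values chose the gene. Each of the 36 intervals includes 0. The intervals leave the pairing of same-numbered sets unused.

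The members separated in time within the combinations. Because they were chosen as early or late falls with LPS alone, the directions of these changes follow in part from that choice. Txnip rose between 1 and 4 h by 1.91 in LPS+ISO (95% interval 1.32 to 2.51; adjusted p = 7.11e-06) and by 2.01 in LPS+PGE2 (1.41 to 2.61; adjusted p = 2.93e-06). Over the same time Pax6 changed by −1.97 in LPS+ISO (adjusted p = 4.96e-07) and −2.15 in LPS+PGE2 (adjusted p = 9.86e-08), Id2 by −2.31 in LPS+ISO (adjusted p = 1.48e-06) and −1.98 in LPS+PGE2 (adjusted p = 1.78e-05), and Angpt2 by −1.66 in LPS+ISO (adjusted p = 3.85e-11) and −1.62 in LPS+PGE2 (adjusted p = 6.56e-11). In LPS+ISO 3 of 4 members thus passed lower at 4 h than at 1 h (10% of all genes) and 1 of 4 higher (9.86%), and in LPS+PGE2 3 of 4 lower (10.5%) and 1 of 4 higher (9.91%).

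Between 1 and 4 h no member passed in ISO (0.57% of all genes did) or in PGE2 (0.133%). The largest changes there were those of Id2, −0.75 in ISO (95% interval −1.41 to −0.096; adjusted p = 0.373) and −0.66 in PGE2 (−1.39 to 0.078; adjusted p = 0.484). With set within time as a block the ISO change of Id2 passed (adjusted p = 0.0336), and with the arrays fitted singly as well (adjusted p = 0.0358). Txnip changed by 0.54 in ISO (adjusted p = 0.507) and 0.54 in PGE2 (adjusted p = 0.533). Averaged over the 3 times, ISO minus PGE2 was −0.048 for Txnip, −0.13 for Pax6, 0.024 for Id2 and 0.0040 for Angpt2, with an adjusted p of 1 for each, and 0 of 10518 genes (0%) passed while 277 had an unadjusted p under 0.05.

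Same-numbered sets of a time moved together across treatments. Averaged over LPS+ISO, LPS+PGE2 and LPS, Txnip at 1 h was −2.71 in set 1, −1.50 in set 2 and −2.35 in set 3. At 2 h the mean of set 2 was the least lowered for Pax6 (−0.73, against −1.38 in set 1 and −1.45 in set 3), for Id2 (−0.84, against −1.99 and −1.86) and for Angpt2 (−0.55, against −0.90 and −0.75). Txnip at 2 h had its least lowered value in set 3 (−1.73). At 4 h the sets of Id2 and Angpt2 were closer, at −2.10, −2.38 and −2.41 for Id2 and −1.93, −1.90 and −2.09 for Angpt2. The part of set differences in the results was not tested beyond the fits with set as a block and without each set.

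The 27 sets with LPS share times, set numbers and perhaps medium RNA, and 9 of them are the sets of LPS alone that chose the members as early or late falls, so the signs of the correlations across them follow in part from that choice. Across them Pax6 and Angpt2 had a Pearson r of 0.911, Pax6 and Id2 of 0.865 and Id2 and Angpt2 of 0.814. Txnip had a negative r with each of them, from −0.838 with Angpt2 to −0.667 with Id2. Across the 17 sets without LPS, r was −0.113 for Pax6 and Angpt2, 0.199 for Pax6 and Id2 and 0.441 for Id2 and Angpt2. Txnip there had an r of −0.735 with Angpt2, −0.599 with Id2 and 0.069 with Pax6.

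The genes whose ratios over the 44 sets were most like those of a member were sought among 8095 genes with a value other than 0 on at least 60 arrays. For Angpt2 they were Gmnn (Pearson r = 0.984), Cdc6 (0.971), Brca1 (0.965), Mcm6 (0.962) and Rpa2 (0.962). Gmnn, which encodes geminin, an inhibitor of replication licensing, stood at −0.13, −0.53 and −1.74 at 1, 2 and 4 h in LPS+ISO. For Pax6 they were Ube2t (0.958), Kifc3 (0.957), Helb (0.956), Cbx6 (0.954) and Mtfp1 (0.950), and Kifc3, a kinesin, stood at −0.010, −0.48 and −1.51 in LPS+ISO.

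For Id2 the most alike were Smad6 (0.939), Tmem41a (0.923), Cep57 (0.918), Helb (0.917) and Rmi1 (0.915), so that Helb, a DNA helicase, stood near both Pax6 and Id2. For Txnip they were Cnr2 (0.913), Zfp28 (0.857), Napb (0.856), Map3k14 (0.850) and Vps25 (0.845). Cnr2, the cannabinoid receptor of immune cells, stood at −1.11, −1.56 and −0.40 at 1, 2 and 4 h in LPS+ISO and so shared the early course of Txnip. The points share arrays, sets and times, and these values describe likeness of pattern only.

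The choice of members can be set beside the genes next to them. In LPS at 1 h Txnip (−2.12) was followed by Sfi1 (−1.58) and Agfg2 (−1.56), and at 2 h Txnip (−2.01) by Lrrc17 (−1.76) and Osgin1 (−1.41), with Pax6 the fourth lowest (−1.36). At 4 h the order was Pax6 (−2.50), Id2 (−2.09), Esco2 (−1.99), Angpt2 (−1.96), Slc40a1 (−1.96) and Zbtb4 (−1.89). Esco2, a cohesion gene, thus lay between Id2 and Angpt2 and was not chosen, and Slc40a1 was lower than medium by 3.89-fold beside 3.90-fold for Angpt2.

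Marker genes were examined because Pax6 and Angpt2 are best known from other tissues. Of 10 macrophage markers 9 were measured, and Csf1r, Adgre1, Cd68, Ptprc, Spi1 and Fcgr1 had a value other than 0 on all 88 arrays, while Lyz2 had one on 6. At 4 h 3 of the 9 passed higher and 1 lower in LPS+ISO (14.4% and 15.6% of all genes). In LPS+PGE2 4 passed higher and 1 lower (15.2% and 16.5%). In LPS+ISO these were Fcgr1 (2.08), Spi1 (0.52) and Adgre1 (0.51), which were higher, and Csf1r (−0.57), which was lower beside Pax6, Id2 and Angpt2. In LPS+PGE2 they were Fcgr1 (1.94), Adgre1 (0.61), Spi1 (0.49) and Ptprc (0.27), with Csf1r at −0.57. Of 22 markers of endothelial, neural and lens, fibroblast, epithelial and lymphoid cells 21 were measured. At 4 h 2 of the 21 passed higher in LPS+ISO (14.4% of all genes), Kdr and Cdh5 (0.16), and 1 in LPS+PGE2 (15.2%), Kdr. None passed lower (15.6% of all genes in LPS+ISO and 16.5% in LPS+PGE2). Pecam1, Tek and Tie1, which mark endothelium, lay between −0.11 and −0.01 at 4 h in LPS+ISO, while Tubb3 and Gfap were other than 0 on 88 and 74 arrays, Sox2 on 63, Cryaa on 59 and Six3 and Neurod1 on 21 each. Tubb3, a tubulin of neurons, passed higher at 1 h in LPS+ISO (0.41) and in LPS+PGE2 at 1 h (0.28) and 2 h (0.22). Of the endothelial markers, Kdr was other than 0 on 85 arrays, Cdh5 on 82, Tek on 62, Pecam1 on 38 and Tie1 on 33. No marker of an endothelial, neural or lens cell fell with Angpt2 or Pax6 past the threshold. Markers at 0 on most arrays could hardly show a fall, so its absence in them tells little. Ratios give no summed marker level, and the part of other cells in the results was not tested.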

How the data were processed

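The authors deposited 1 table of log2 ratios per probe and array. Scale (log2) and direction (Cy5 over Cy3) were inferred from the values, and how images were read, normalized or centred is not stated in the labels. Every column had a median of 0 and 10.95 to 45.67% of probes at exactly 0, whose meaning is unknown. A mean with such zeros is drawn toward 0. Arrays of one dye orientation had r no lower than −0.038 with each other. The sign was reversed where Cy3 carried the treated RNA. Once reversed, r between both arrays of a set was 0.184 to 0.842 in the 27 sets with LPS and −0.588 to 0.312 in the 17 without, 10 of them below 0. Dye-swap pairs were averaged.

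Probes with 1 gene symbol (13738 of 16281 probes, with 2491 not listed) were updated through Entrez identifiers, 478 at 0 throughout were left out, and 13260 were averaged to 10518 genes. With limma 3.58.1 (statmod 1.5.0, R 4.3.3), lmFit and eBayes fitted 44 set means with 15 group means (29 residual and 2.68 prior degrees of freedom). The ratio against 0 is the two-sided test against medium, and adjusted p is from Benjamini-Hochberg over all genes. The fit was tried on simulated data with independent noise in each set, so that trial did not cover the pairing of same-numbered sets.

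Deviations of same-numbered sets from their group means correlated within a time (r of 0.497 to 0.766 in 9 pairs of LPS+ISO with LPS+PGE2, 0.197 to 0.590 in 9 of LPS+PGE2 with LPS, 0.351 to 0.600 in 9 of LPS+ISO with LPS and 0.186 to 0.661 in 8 of ISO with PGE2), so the numbers pair the sets, a pairing seen in the data and not stated in the labels. The fit reported did not use this pairing. In the alternatives, set number or set within time was a fixed block. Where arrays were fitted singly, the dye-swap pair was the random block (duplicateCorrelation).

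The members and gene lists were chosen with earlier results of these data known. Genes beside the members were named by a rule: the 5 with the highest r, the neighbours in the order of falls, and up to 4 per list with the largest ratios that passed. Alternatives were zeros as missing, 1 probe per gene, values centred on the median of values other than 0, genes measured on at least 60 arrays, trend and robust eBayes, only the same time or treatment in the fit, arrays fitted singly, 2 blocks and leaving out each set.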

Additional observations from a re-analysis of the deposited data

Results flagged for a closer look

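The difference between 4 and 1 h within a treatment passed limma's test for every member in both combinations, which is what marked these results, with values on the log2 scale. The members were chosen as early or late falls with LPS alone, so these directions follow in part from that choice. The difference was 1.91 for Txnip in LPS+ISO and 2.01 in LPS+PGE2. It was −1.97 for Pax6 in LPS+ISO and −2.15 in LPS+PGE2. Id2 differed by −2.31 in LPS+ISO and −1.98 in LPS+PGE2, and Angpt2 by −1.66 in LPS+ISO and −1.62 in LPS+PGE2. No group held 4 or more sets, so no single set could be marked as standing apart.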

How the results depend on the processing

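Of 94 tests on the members, 86 kept their side of the threshold and none that passed turned its direction under the 12 alternatives. The fall of Angpt2 at 1 h lost its call in LPS+ISO with zeros as missing (−0.34), with 1 probe per gene (−0.36) and with only the same time in the fit (−0.34), and ran from −0.38 to −0.27 without 1 set. In LPS+PGE2 it lost its call with zeros as missing, with trend and robust eBayes and with only the same time in the fit (−0.32 in each), and ran from −0.41 to −0.26 without 1 set. At 4 h in LPS, 1 probe per gene moved Angpt2 to −2.51. Leaving out 1 set gave −1.13 to −0.78 for Pax6 at 2 h in LPS+PGE2, −0.36 to −0.35 for Angpt2 at 4 h in PGE2 and −0.32 to −0.18 in ISO. The ISO value passed at −0.32 and the PGE2 value at −0.35, each without set 1. Calls gained with all sets kept left the value as it was: Angpt2 at 4 h in PGE2 (−0.36) with only the same time in the fit (adjusted p = 0.0444), with arrays fitted singly (0.00394) and with set number as a replicate block (0.0304), and Id2 in ISO at 1 h (0.54) and from 1 to 4 h (−0.75) with arrays fitted singly. A block of set within time, added after seeing the data, gave calls to Txnip at 4 h in LPS+ISO (−0.32), to both Id2 values in ISO and to Angpt2 at 4 h in PGE2, and changed no other call of the members. Counts over all genes moved more. In LPS+ISO they ran over the alternatives from 172 to 1818 at 1 h (781 in the fit reported), 642 to 2349 at 2 h (1457) and 2030 to 4097 at 4 h (3156). In LPS+PGE2 they ran from 201 to 1781 (808), 599 to 2263 (1395) and 2163 to 4179 (3327), in ISO from 8 to 540 (95), 51 to 564 (180) and 56 to 1178 (353), and in PGE2 from 4 to 435 (34), 3 to 180 (48) and 24 to 573 (120). Between 1 and 4 h they ran from 1031 to 3204 in LPS+ISO (2094), 964 to 3264 in LPS+PGE2 (2151), 4 to 566 in ISO (60) and 0 to 683 in PGE2 (14). LPS+ISO minus LPS gave 0 to 53 genes at 4 h (10) and LPS+PGE2 minus LPS 0 to 50 (3). The cause of these shifts was not tested. No intensities were used here, so signal over background is unknown.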

Other observations

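At 1 h genes of the members' lists passed higher with ISO or PGE2 alone, while no member passed. In ISO these were Vegfa (0.94), Id1 (0.93) and Smad7 (0.80), and in PGE2 Id1 (0.82) and Smad7 (0.62), whereas Vegfa stood at 0.64 in PGE2 without passing. Over all genes at 1 h, 0.903% passed in either direction in ISO and 0.323% in PGE2. In LPS+ISO at the same time Id1 was at −0.13 and Smad7 at 0.31, neither of which passed, and Vegfa was at 1.10. As a check of direction outside LPS, Nr4a1, an early gene known to follow cyclic AMP, lay above 0 on 6 of 6 ISO arrays (2.05 to 2.93) and 4 of 4 PGE2 arrays (1.43 to 1.93) at 1 h.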
